A study of Mus musculus with 4 samples.

Results

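A set of 34 genes of early skeletal muscle was followed in cells of the mouse hindlimb bud: the proteins of the sarcomere, the factors that assemble it, the subunits of the muscle acetylcholine receptor, and the channels that couple excitation to contraction. Members were chosen by gene symbol, and all 34 were present among the 25239 symbols of the count table. RNA was sequenced from hindlimb cells of FVB embryos at embryonic day 11.5. All embryos were labelled wild-type in genotype and carried the same reporter at the H11 safe-harbour locus, hsp68-hZRS(404G>A)-mCherry, where the human form of the ZRS limb enhancer, altered at a single base, is joined to the hsp68 promoter and the red fluorescent protein mCherry. One population was dissected from the anterior hindlimb and sorted as mCherry-positive, the other from the central hindlimb and sorted as mCherry-negative, with 2 libraries each. Position in the limb and the sorting gate changed together, so their parts in any difference cannot be told apart. The labels do not say how many embryos went into a library, so p-values measure only the spread between these libraries.

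Limb muscle does not arise from the limb mesenchyme. Its precursors leave the somites, migrate into the bud under the control of Pax3, Lbx1 and the receptor Met, and are committed to the muscle fate by Myf5 and Myod1. Myog then drives terminal differentiation, in which cells leave the cycle, fuse and build sarcomeres from actin thin filaments, myosin thick filaments and the elastic protein titin. Early limb muscle uses isoforms that in the adult are typical of heart or slow fibres, and its acetylcholine receptors contain the fetal gamma subunit.

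Muscle differentiation genes were mostly lower in anterior than in central cells, and many were low in both. Over 3 counts in both libraries, 3 counts being the floor used here, were reached by 18 of the 34 members in anterior cells and by 28 in central cells. Summed over the 34 members, CPM (read counts relative to the TMM-scaled library size) was 54.7 and 49.4 in the anterior libraries against 175.0 and 98.1 in the central ones. Most of the anterior sum came from Ryr1 and Mef2c. Without that pair, which was set aside after its values were seen, the remaining 32 members summed to 12.4 and 12.6 CPM in anterior cells and to 129.0 and 58.8 in central cells. In these bulk samples, fewer muscle cells and less muscle RNA per cell cannot be told apart.

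The default expression filter of edgeR kept 23 of the 34 members. Of these, 16 were called lower in anterior cells and 0 higher by edgeR's quasi-likelihood test (Benjamini-Hochberg adjusted p-value under 0.05 over all 14610 tested genes), and 7 were not called. Across all tested genes, 12.3% were called lower and 10.7% higher. Both anterior libraries lay below both central libraries for 22 tested members, a pattern shown by 32.6% of all tested genes. The median log2 fold change, anterior minus central, was -2.28 over the tested members and -0.01 over all tested genes. Placing the tested members without any anterior count at their bounds left the median at -2.28. It could not have changed, because those bounds also lay below it. Only 13 of the tested members reached the filter's count minimum in both anterior libraries. Another 5 (Myh3, Tnnt2, Tnnt3, Chrnd and Chrng) reached it in no anterior library, so they passed through the central libraries and had to differ to be tested at all, and the remaining 5 reached it in 1 anterior library. Of the 13, 7 were called lower.

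**Figure D1:**
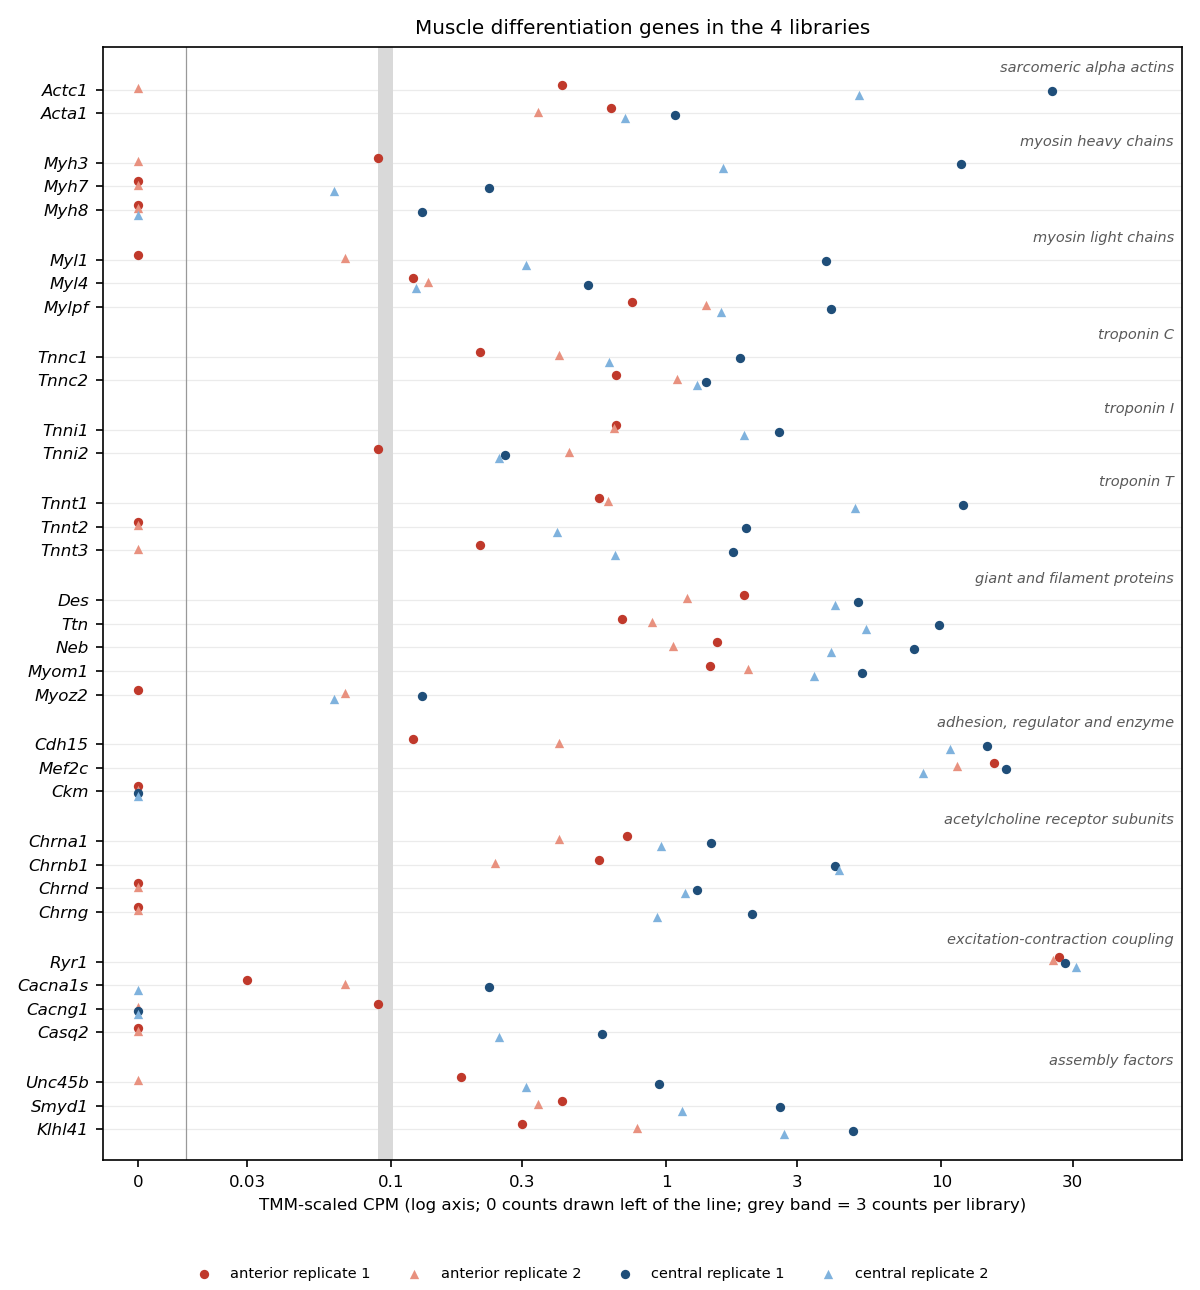
TMM-scaled CPM (log axis) of the 34 members in each library, grouped by role; circles are replicate 1 and triangles replicate 2, red for anterior and blue for central, and values of 0 stand left of the vertical line. Most central points (blue) stand to the right of the anterior points (red), whereas Ryr1 and Mef2c lie close together in all libraries at 8.56 to 30.8 CPM.

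Library totals ranged from 30080925 to 33257383 counts, and the floor of 3 counts equalled 0.0899 to 0.102 CPM. Even numbers made up 72.8% to 75.6% of all counts from 1 to 10, a pattern seen when the mates of a pair are counted separately, so the number of fragments behind a small count is lower than the count. The central cells carried the defining transcripts of the muscle lineage. Lbx1 had 784 and 840 counts in the central libraries and 4 and 3 in the anterior ones, and Pax3 had 512 and 674 against 12 and 8. The limb mesenchyme markers were abundant in both populations, with summed CPM of 3146 and 3074 in anterior and 2084 and 1950 in central cells. They were not equal between them: of 8 tested, 5 were called higher and 1 lower in anterior cells by edgeR, with a median log2 fold change of 1.37. Erythroid markers, at 3303 and 8420 summed CPM in anterior cells and 6.04 and 9.55 in central cells, moved in the opposite direction to the muscle genes. Removing the erythroid markers before scaling left 16 members called lower.

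The sequences before the start sites of 6 called members are shown because all of these genes were called lower and they span actin, myosin, troponin, titin, an assembly factor and a receptor subunit; they were picked after their values and matches were seen. Each run is the 250 bases before the RefSeq start site on GRCm38.p6, the reference of another strain than FVB, written in the direction of transcription. For Actc1, Tnnt1 and Chrng this start lies inside the GENCODE M21 span of the gene, past its first base. Other start sites of these genes would have other bases before them. Capitals mark matches to CANNTG (the E-box bound by MyoD-family proteins), the CArG box, the MEF2 site, TATAAA, or CATTCC (the core of the MCAT element), searched on both strands.
Actc1 (chr2:114052876-114053125, minus strand): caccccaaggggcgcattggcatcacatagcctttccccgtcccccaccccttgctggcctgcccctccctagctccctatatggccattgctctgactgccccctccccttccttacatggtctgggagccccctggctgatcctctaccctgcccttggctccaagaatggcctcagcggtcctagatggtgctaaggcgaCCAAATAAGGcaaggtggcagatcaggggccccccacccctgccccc
Myh3 (chr11:67078050-67078299, plus strand): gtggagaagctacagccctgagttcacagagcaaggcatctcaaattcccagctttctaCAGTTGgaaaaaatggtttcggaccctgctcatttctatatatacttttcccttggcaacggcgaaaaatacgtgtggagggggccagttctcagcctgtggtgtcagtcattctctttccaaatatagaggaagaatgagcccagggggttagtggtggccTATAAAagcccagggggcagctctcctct
Tnnt1 (chr7:4515976-4516225, minus strand): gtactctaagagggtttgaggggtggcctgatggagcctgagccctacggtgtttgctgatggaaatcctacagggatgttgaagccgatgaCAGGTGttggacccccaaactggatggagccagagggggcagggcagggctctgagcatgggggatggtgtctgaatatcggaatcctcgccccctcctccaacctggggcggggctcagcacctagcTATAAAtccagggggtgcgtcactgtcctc
Ttn (chr2:76982548-76982797, minus strand): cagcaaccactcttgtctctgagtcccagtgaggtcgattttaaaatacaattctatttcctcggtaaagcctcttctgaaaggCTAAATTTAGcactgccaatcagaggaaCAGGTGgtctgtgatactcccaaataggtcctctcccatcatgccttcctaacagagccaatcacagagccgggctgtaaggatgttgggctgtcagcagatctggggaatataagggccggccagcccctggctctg
Klhl41 (chr2:69669870-69670119, plus strand): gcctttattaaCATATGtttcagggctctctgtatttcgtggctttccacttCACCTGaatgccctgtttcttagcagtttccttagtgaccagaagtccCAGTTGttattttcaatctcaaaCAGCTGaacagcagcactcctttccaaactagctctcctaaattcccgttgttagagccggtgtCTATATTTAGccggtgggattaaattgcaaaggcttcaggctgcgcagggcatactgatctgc
Chrng (chr1:87205561-87205810, plus strand): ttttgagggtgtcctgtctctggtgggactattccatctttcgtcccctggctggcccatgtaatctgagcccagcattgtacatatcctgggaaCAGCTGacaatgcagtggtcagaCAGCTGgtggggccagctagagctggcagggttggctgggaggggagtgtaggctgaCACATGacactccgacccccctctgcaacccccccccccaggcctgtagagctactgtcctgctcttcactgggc
The Chrng stretch holds the E-box variant CAGCTG at 2 places, and Klhl41 and Ttn each hold a MEF2 site beside E-boxes or an E-box. The Actc1 stretch, before the start site used here, holds a CArG box and no CANNTG. Past the start site, outside the bases shown, Actc1 has the CANNTG form CAACTG from base 8 and a TATAAA from base 33. Myh3 and Tnnt1 each have 1 CANNTG and a TATAAA, whose first base is at -29 in Myh3 and at -30 in Tnnt1, counted from the start site.

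RefSeq promoter windows were found for 29 of the 34 members (34 windows of 250 bases before to 50 after the start); none were used for Tnni2, Tnnt3, Neb, Chrnd and Cacng1. In 29 of the 34 windows the first 30 transcribed bases were found in a GENCODE M21 transcript of the gene. CAGCTG, which is itself a form of CANNTG, occurred in 38.2% of the member windows and in 16.3% of all 32851 windows in the table. CANNTG in any form was common everywhere, in 88.2% of member windows and 72.3% of all windows. The MEF2 site was found in 14.7% against 3.19%, and the CArG box in 8.82% against 1.63%. CATTCC was present in 26.5% against 14.7%, and TATAAA, which can overlap a MEF2 site, in 29.4% against 13.6%. These are matches of letters in a window and say nothing of binding.

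Of the 2 sarcomeric actin genes of the thin filament, Actc1 was called lower and Acta1 was not. Actc1 (chr2:114047282-114053548), the cardiac alpha-actin that embryonic skeletal muscle also uses, was counted 14 and 0 times in anterior cells and 779 and 163 times in central cells. The central libraries were both far above the anterior ones but differed 5.02-fold from each other. Its log2 fold change was -6.07 ± 0.98 (SE; edgeR adjusted p = 0.00285). The call was lost with limma-voom (adjusted p = 0.136) and with the DESeq2 Wald test (0.0504). Its log2 fold change was -11.87 without anterior replicate 1, -5.16 without anterior replicate 2, -4.50 without central replicate 1 and -6.81 without central replicate 2. The first of these leaves an anterior library at 0, so its size depends on the prior count. Acta1, the skeletal alpha-actin of mature fibres and a near-identical paralog whose reads may be split with Actc1, had 21 and 10 counts against 33 and 23 and was not called (log2 fold change -0.86, edgeR adjusted p = 0.343).

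Troponin T ties the troponin complex to tropomyosin, and all 3 of its genes were called lower, against 12.3% of all tested genes. Tnnt2 and Tnnt3 reached the filter's count minimum in no anterior library, so they had to differ to be tested at all. Tnnt1 (chr7:4504570-4516382), the slow skeletal form, had 19 and 18 counts in anterior cells and 368 and 157 in central cells, with a log2 fold change of -3.82 ± 0.47 (SE; edgeR adjusted p = 0.0007) that was -3.03 without central replicate 1. Tnnt2 (chr1:135836354-135852260), the cardiac form, was not counted in anterior cells and had 60 and 13 counts in central cells. This is at least 12.2-fold lower in anterior cells, measured against a floor of 3 counts per library (edgeR adjusted p = 0.011). The bound rests on central replicate 1: without it the bound was 4.18-fold and Tnnt2 did not pass the filter, and without central replicate 2 the bound was 20.3-fold. Tnnt3, the fast skeletal form, had 7 and 0 counts against 54 and 21 (log2 fold change -3.40, edgeR adjusted p = 0.040). For Tnnt3 the adjusted p-value in edgeR rose to 0.112 without anterior replicate 2 and to 0.208 without central replicate 1, and the log2 fold change was -8.21 without anterior replicate 1, -2.49 without anterior replicate 2 and -2.53 without central replicate 1.

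The inhibitory and calcium-binding troponins were less separated. Tnni1, slow troponin I, had 22 and 19 counts in anterior cells and 79 and 62 in central cells, and the log2 fold change was -1.77 ± 0.43 (SE; edgeR adjusted p = 0.0192). That call was lost when anterior replicate 1, anterior replicate 2 or central replicate 1 was left out (edgeR adjusted p-values 0.0574, 0.0674 and 0.103). Its fast counterpart Tnni2 had 3 and 13 counts against 8 and 8, overlapped between groups and was not tested. Tnnc1, the slow and cardiac troponin C, had 7 and 12 counts against 57 and 20 (log2 fold change -1.99, edgeR adjusted p = 0.0794), and was called only with no count filter (0.041) or without central replicate 2 (0.0244). Without central replicate 1 its log2 fold change was -0.998 (adjusted p in edgeR = 0.571). Tnnc2, the fast form, had 22 and 32 counts against 43 and 42 and was not called (adjusted p in edgeR = 0.398). Its value is uncertain because 74.0% of its exonic bases lie opposite exons of Ube2c, a gene with 5949 to 8609 counts per library, and the use of strand in counting is not stated.

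**Figure D2:**
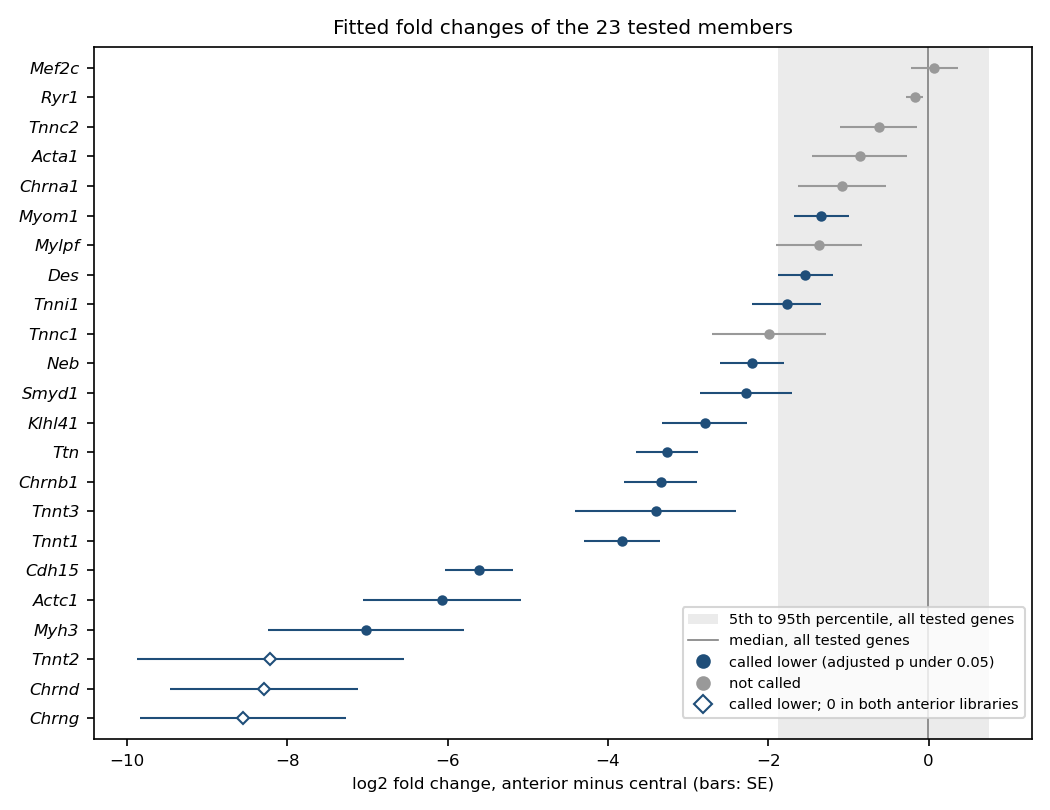
Log2 fold change, anterior minus central, of the 23 tested members with its SE; blue is called lower, grey not called, and open diamonds are genes at 0 in both anterior libraries, whose fitted value depends on the prior count. All members except Mef2c have a negative value, and 13 called members lie to the left of the 5th percentile of all tested genes, -1.88.

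The myosin heavy chain genes of the thick filament had at most 3 counts in any anterior library. Myh3 (chr11:67078300-67102291), embryonic myosin heavy chain, was counted 3 and 0 times in anterior cells and 364 and 52 times in central cells. With so few anterior counts, the ratio of central to anterior was 138 with a 95% counting interval of 28.2 to 858. The ratio was 33.6 without central replicate 1 and 247 without central replicate 2. Its edgeR adjusted p-value was 0.0041, and the call was lost with limma-voom (0.0856). The fitted log2 fold change of -7.02 was -10.69 without anterior replicate 1, -6.15 without anterior replicate 2, -4.97 without central replicate 1 and -7.84 without central replicate 2. The perinatal form Myh8 had 4 counts in central replicate 1 and 0 elsewhere. Myh7, the slow and cardiac form, was not counted in anterior cells and had 7 and 2 counts in central cells. Neither was tested.

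The light chains were uneven. Myl1 (chr1:66924295-66945404), the essential light chain of fast skeletal muscle, had 0 and 2 counts in anterior cells and 117 and 10 in central cells, the largest ratio between the central libraries among members counted in both. The filter left it out. Its central to anterior ratio was 63.0 (95% counting interval 11 to 2547), and with no filter it was called lower (edgeR adjusted p = 0.000232). Without central replicate 1 the ratio was 9.68 and Myl1 did not pass the filter, whereas it passed and was called lower when any of the other 3 libraries was left out, with a ratio of 119 without central replicate 2. Mylpf, the fast regulatory light chain, had 25 and 41 counts against 122 and 51 and was not called (log2 fold change -1.37 ± 0.53 SE, edgeR adjusted p = 0.103). It was called with no filter (0.0331) and without central replicate 2 (0.00737), but without central replicate 1 its log2 fold change was -0.56 (0.607). Myl4, the embryonic and atrial light chain, had 4 counts in each anterior library and 16 and 4 in central cells.

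The scaffold genes were detected in anterior cells and still lower there. Ttn (chr2:76703980-76982547), encoding the elastic protein that spans the sarcomere from Z-disc to M-band, had 23 and 26 counts in anterior cells and 302 and 172 in central cells, with a log2 fold change of -3.26 ± 0.39 (SE; edgeR adjusted p = 0.000534). Neb, encoding the thin filament protein nebulin, had 51 and 31 counts against 246 and 129 (log2 fold change -2.20 ± 0.40 SE, adjusted p = 0.00528), or -1.61 without central replicate 1. Des, the muscle intermediate filament, had 64 and 35 counts against 153 and 133 (log2 fold change -1.54 ± 0.34 SE, edgeR adjusted p = 0.013, or 0.0537 without anterior replicate 2). Myom1, a crosslinker of the M-band, had 48 and 58 counts against 159 and 112 (log2 fold change -1.34, adjusted p = 0.0246), and was not called without anterior replicate 1 (0.0886) or central replicate 1 (0.115). Of the exonic bases of Myom1, 1.98% lie opposite exons of Myl12a, a gene with 4428 to 5498 counts per library, and the use of strand is not stated. The Z-disc gene Myoz2 had at most 4 counts in any library.

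The assembly factors that could be tested were called lower. Klhl41 (chr2:69670120-69684230), a Kelch protein that stabilises nebulin, had 10 and 23 counts in anterior cells and 147 and 87 in central cells (log2 fold change -2.79 ± 0.53 SE, edgeR adjusted p = 0.00608), or -2.24 without anterior replicate 1 and -3.61 without anterior replicate 2. Smyd1, a muscle methyltransferase needed for thick filament assembly, had 14 and 10 counts against 80 and 37 (log2 fold change -2.28 ± 0.57 SE, edgeR adjusted p = 0.0217). The Smyd1 call was lost with limma-voom (0.0504) and without anterior replicate 2 (0.0726) or central replicate 1 (0.223; log2 fold change -1.57). Unc45b, the myosin chaperone, had 6 and 0 counts against 29 and 10 and did not pass the filter.

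The smallest adjusted p-value of any member was that of Cdh15 (chr8:122847966-122867397), M-cadherin, an adhesion protein of myoblasts and satellite cells. It was counted 4 and 12 times in anterior cells and 453 and 347 times in central cells, a log2 fold change of -5.61 ± 0.42 (SE; edgeR adjusted p = 4.0e-05). It was called in every fit that was run, including each that left out a library, with log2 fold changes between -6.68 (without anterior replicate 2) and -4.94 (without anterior replicate 1).

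Of the 4 acetylcholine receptor subunits, 3 were called lower, against 12.3% of all tested genes. Chrnd and Chrng reached the filter's count minimum in no anterior library, so they had to differ to be tested at all. Chrnb1 reached it in 1 anterior library, and only Chrna1, which was not called, reached it in both. Chrnd and Chrng, neighbours on chromosome 1 (chr1:87190607-87200070 and chr1:87204657-87212694), encode the delta and the fetal gamma subunit. Both had 0 counts in the anterior libraries. In the central libraries Chrnd had 40 and 38 counts and Chrng 63 and 30, which makes Chrnd at least 12.9-fold lower in anterior cells and Chrng at least 15.5-fold lower (edgeR adjusted p-values 0.0022 and 0.00284). Without central replicate 1 the bound for Chrng was 9.64-fold. Chrnb1, the beta subunit, had 19 and 7 counts against 127 and 138 (log2 fold change -3.34 ± 0.45 SE, edgeR adjusted p = 0.00112), or -4.11 without anterior replicate 1. Chrna1, the ligand-binding alpha subunit, had 24 and 12 counts against 45 and 31 and was not called (log2 fold change -1.08, adjusted p = 0.198).

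The genes of excitation-contraction coupling did not move as a group. Ryr1, the calcium release channel of skeletal muscle, had 891 and 745 counts in anterior cells and 865 and 996 in central cells. It was among the most abundant members in both populations and was not called (log2 fold change -0.18 ± 0.10 SE, edgeR adjusted p = 0.267). Its partner Cacna1s, the voltage sensor that opens it in muscle, had at most 7 counts in any library, and the accessory subunit Cacng1 had 3 counts in anterior replicate 1 and 0 elsewhere. Casq2, the calcium-storing calsequestrin of heart and slow muscle, had 0 counts in anterior cells and 18 and 8 in central cells, at least 4.33-fold lower, or 2.57-fold without central replicate 1. It did not pass the filter and was called lower without one (edgeR adjusted p = 0.025).

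Mef2c, a transcription factor that activates muscle genes and is also used in endothelial and neural crest cells, was the only tested member whose groups overlapped. It had 520 and 334 counts in anterior cells and 528 and 277 in central cells (log2 fold change 0.07 ± 0.30 SE, edgeR adjusted p = 0.888). Its direction depended on single libraries: the log2 fold change was -0.17 without anterior replicate 1, -0.34 without central replicate 2 and 0.66 without central replicate 1. Ckm, the muscle creatine kinase of mature fibres, was listed at 0 in all 4 libraries.

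Compared per length (CPM per kilobase of the GENCODE M21 exon union), Actc1 had the highest mean of any member in central cells at 9.37 ± 8.85 (SD, n = 2), a value set largely by central replicate 1. In central replicate 2 alone Cdh15 was higher, at 3.30 against 3.11 CPM per kilobase, and with the longest transcript Tnnt1 was also above Actc1 there, at 4.58 against 3.42. On the mean, Cdh15 at 3.91 ± 0.87, Tnnt1 at 3.81 ± 2.28 and Mylpf at 2.61 ± 1.59 CPM per kilobase came next, and their ranges across the 2 libraries overlapped. Chrnb1 stood at 1.66 ± 0.04 and Ryr1 at 1.35 ± 0.09 CPM per kilobase. Ttn, whose transcripts are very long, was only at 0.06 ± 0.03 on this scale.

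In several protein families 1 form took most of the level per length. Actc1 made up 95.7% and 87.1% of the summed alpha-actin level in the central libraries, and Myh3 made up 98.1% and 97.4% of the 3 heavy chains. Slow Tnnt1 held 80.0% and 82.7% of troponin T and slow Tnni1 80.4% and 76.3% of troponin I. Troponin C was mixed, with Tnnc1 at 50.5% and 26.8%, subject to the doubt over Tnnc2. Among receptor subunits Chrnb1 was highest, at 57.2% and 67.9%. These shares depend on the transcript models used for length. With the longest transcript in its place, the central level of Tnnt1 was 7.93 and that of Mef2c 2.05 CPM per kilobase, against 3.81 and 0.82 with the exon union.

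**Figure D3:**
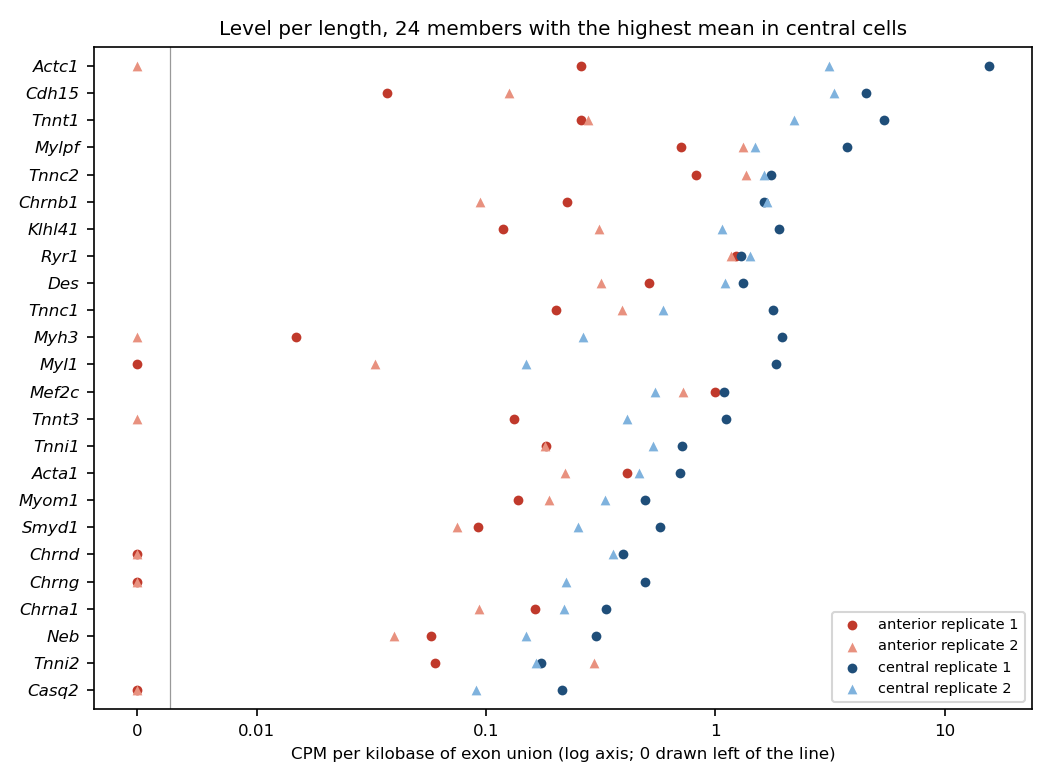
CPM per kilobase of exon union (log axis) in each library for the 24 members with the highest mean level in central cells; red is anterior, blue is central, circles replicate 1 and triangles replicate 2. Actc1 leads in central replicate 1 at 15.6 CPM per kilobase, while its 2 central points are the farthest apart among the 3 leading genes.

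The 2 central libraries differed from each other over much of the set. CPM was higher in central replicate 1 than in central replicate 2 for 21 of the 23 tested members, against 50.5% of all tested genes, and more than 1.5 times higher for 15 of them, against 6.81% of all tested genes. The count was 21 under each of the other scalings too. Tested members were less abundant than tested genes at large, so counting error weighs more on their ratios. A mean count of at least 50 was reached by 13 members and 12168 genes, beside 23 and 14610 tested. Acta1 and Chrna1 were over 1.5 times higher with 95% counting intervals across 1 (0.670 to 3.42 and 0.764 to 3.06). In the anterior libraries, where levels were low, 12 of the 23 were higher in replicate 1, against 49.7% of all tested genes. The pattern was weaker in a list of 57 further muscle genes, of which 30 were tested. Of these, 18 were higher in central replicate 1 than in central replicate 2, and 5 were more than 1.5 times higher. Their median ratio was 1.03, against 1.85 for the tested members. These values compare 2 libraries and have no replicate check.

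The largest gaps were in contractile genes. The CPM ratio of central replicate 1 to replicate 2 was 12.3 for Myl1 (95% counting interval 5.03 to 39.6), 7.36 for Myh3 (4.86 to 11.6), 5.02 for Actc1 (3.93 to 6.42) and 4.85 for Tnnt2 (1.94 to 12.2). Not all contractile genes had one, with Acta1 at 1.51 (0.670 to 3.42) and Tnni1 at 1.34 (0.827 to 2.24). It was smaller for the scaffold genes, at 2.004 for Neb and 1.85 for Ttn. The adhesion gene Cdh15 stood at 1.37 (1.12 to 1.68). Receptor subunits were uneven, with Chrng at 2.21 (1.18 to 4.46), Chrnd at 1.11 (0.561 to 2.19) and Chrnb1 at 0.967 (0.683 to 1.39). Ryr1 was at 0.913 (0.802 to 1.04).

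The upstream regulators of the lineage were ordered differently between the same libraries. Pax3 and Lbx1, which mark migrating precursors, had ratios of 0.798 (95% counting interval 0.676 to 0.942) and 0.981 (0.853 to 1.13). Myf5, an early commitment factor, was at 1.01 (0.785 to 1.30) and Myod1 at 1.58 (1.30 to 1.93). Myog, the differentiation factor, was at 2.73 (2.15 to 3.50), and the fusion genes Mymk and Mymx were at 2.28 (1.18 to 4.46) and 10.5 (2.55 to 92.8); the fusion genes were named after their values were seen. Of the tested regulators, 8 of 16 were higher in central replicate 1, with a median ratio of 0.994, whereas the median ratio of the tested members was 1.85. Other markers also moved between these libraries. Acta2, the smooth muscle actin that early skeletal muscle expresses too, had 456 and 145 counts, and the Schwann precursor marker Sox10 had 70 and 18. Endothelial markers were lower in central replicate 1, at 35.7 against 48.7 summed CPM, and the part of such differences in cell content was not tested.

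**Figure D4:**
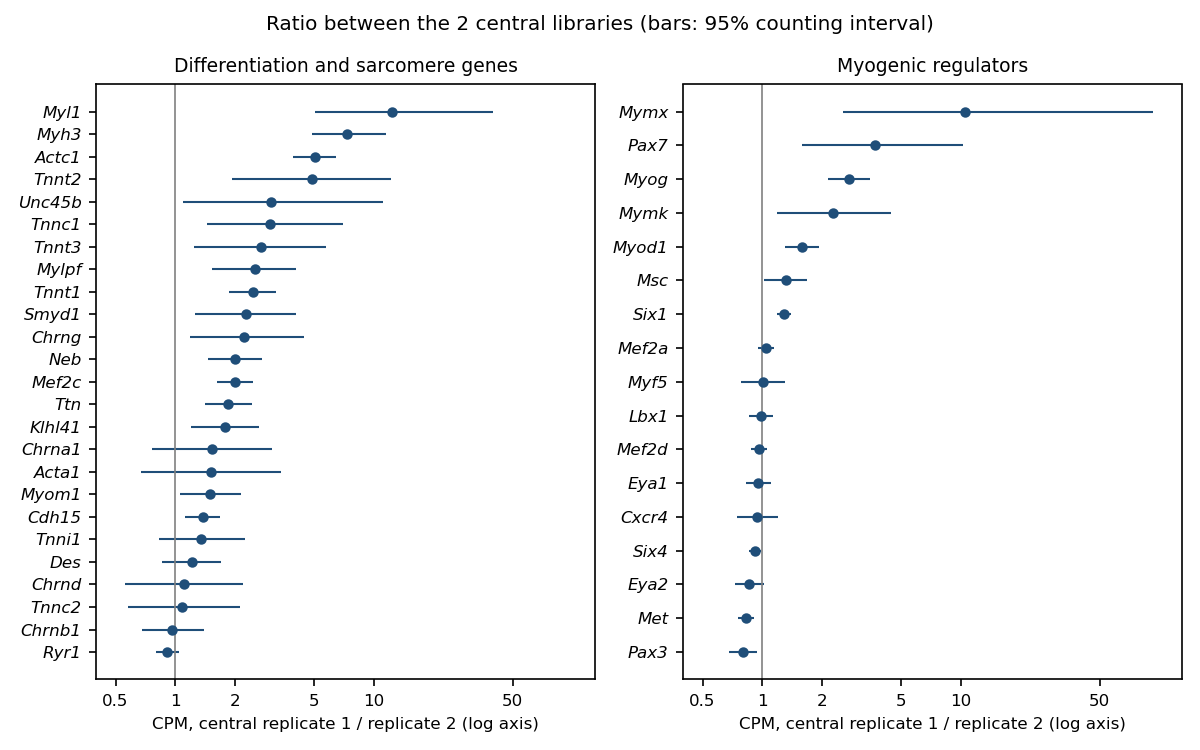
Ratio of CPM in central replicate 1 to central replicate 2 (log axis) with 95% counting intervals, for the 25 members (left) and 17 myogenic regulators (right) with at least 20 counts in the higher library. The interval lies above 1 for 17 members and below 1 for 0, and above 1 for 7 regulators and below 1 for 3, with Pax3 and Met at the bottom and Mymx, Pax7 and Myog at the top.

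Other muscle genes were set beside the members. Of 18 myogenic regulators, 16 were tested, 14 were called lower in anterior cells and 0 higher by edgeR, with a median log2 fold change of -4.50. Myf5 had 3 and 0 counts in anterior cells against 251 and 262, Myod1 had 6 and 4 against 514 and 342, and Myog had 0 in both against 494 and 190. Of 57 further muscle genes, 30 were tested, 16 were called lower and 2 higher (median -1.19). Some of these are not restricted to muscle: Tpm3, a tropomyosin of many cell types, had 13779 to 16100 counts in every library and was not called, whereas Tpm1 was lower (log2 fold change -1.32, edgeR adjusted p = 3.4e-05). Mybpc1, the slow form of myosin-binding protein C, named after its values were seen, had 6 and 14 counts against 574 and 607, nearly equal in the central libraries. The genes called higher were Lrp4 and Tmod1, of which Tmod1, named after its values were seen, is also a red cell gene and had 26 and 83 counts in anterior cells against 2 and 0.

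Several members are also cardiac genes, so heart markers were read beside them. Nkx2-5, Myl7, Nppb and Myl2 were at 0 in all 4 libraries. Myh6 had 15 counts, Mybpc3 10, Smpx 6 and Sln 4 in central replicate 1, the highest library for each, and all had 0 in central replicate 2. Nppa went the other way, with 0 and 6 counts in the central libraries and its highest count, 12, in anterior replicate 2. Tnni3, at 64 to 117 counts, was the only cardiac gene tested and was not called (adjusted p in edgeR = 0.398). The smooth muscle list had 2 of 6 tested genes called lower, Acta2 and Mylk. Endothelial markers were called lower in 7 of 10 tested genes and so fell together with the muscle genes in anterior cells; summed endothelial CPM was 9.20 and 14.5 in anterior cells and 35.7 and 48.7 in central cells. The Schwann precursor list went both ways: of 8 genes 4 were tested, 2 were called lower and 1 higher. Sox10 had 0 counts in both anterior libraries against 70 and 18 in central cells, and Erbb3 had 36 and 20 against 482 and 346 (log2 fold change -3.88, edgeR adjusted p = 5.9e-05), whereas Ngfr was higher in anterior cells (log2 fold change 1.71, edgeR adjusted p = 0.00143). The part of these cell types in the members' values was not tested.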

How the data were processed

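RNA was measured by paired-end sequencing in 2 anterior and 2 central hindlimb libraries. The deposited table holds whole-number read counts per gene symbol, not normalized. Per the submitters' processing notes, the tools were STAR 2.7.9a, HTSeq and DESeq2 (3.16) with build mm10; annotation, strandedness and treatment of mates are not given in the sources used here. Groups and replicate numbers come from the sample titles. The members and gene lists were chosen with earlier results of these data known.

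The fit used edgeR 4.0.16 (R 4.3.3): filterByExpr (minimum count 10, minimum total 15), TMM scaling, quasi-likelihood F test with 2 residual degrees of freedom, and Benjamini-Hochberg adjustment over all 14610 tested genes at 0.05. The SE is the absolute log2 fold change over the square root of F. Genes at 0 in a group are bounded against 3 counts per library. Ratios carry exact 95% intervals on halved counts, which cover counting error only. The naming rule took all members, up to 4 most abundant genes of each list, and 5 fixed regulators; others are marked. Alternatives were 3 scalings, 2 filters, the replicate block, DESeq2 1.42.0, limma-voom (limma 3.58.1), halved counts, removal of erythroid genes and leaving out each library. The pipeline was tested on simulated data. Coordinates and lengths are from GENCODE M21 (GRCm38), and promoters from RefSeq (GRCm38.p6).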

Additional observations from a re-analysis of the deposited data

How the results depend on the processing

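The number of members called lower in anterior cells was 16 in the reported fit and 13 to 16 under the alternative scalings, the replicate block, halved counts, removal of erythroid genes, limma-voom and the DESeq2 Wald test. It was 20 with no filter, where 33 members were tested, and 10 with a mean count of at least 50, where 13 members were tested; the smaller count follows from the fewer members tested. No member was called higher in any of these fits, nor in those that left out a library. Across the fits without 1 library, in which the lone library of a group is assumed to vary like the other group, the number called lower ranged from 11 (without central replicate 1) to 20 (without central replicate 2), the median log2 fold change of tested members from -2.95 to -1.59, and the count of all called genes from 2009 (without anterior replicate 2) to 3697, against 3351 in the reported fit. The count of members higher in central replicate 1 and the motif counts stayed within 1.5 times of the reported values under their alternatives. Mef2c changed sign without anterior replicate 1 (-0.17) and without central replicate 2 (-0.34), and reached 0.66 without central replicate 1; the cause was not tested. Fitted sizes of several members moved widely, from -11.87 without anterior replicate 1 to -4.50 without central replicate 1 for Actc1, from -10.69 to -4.97 under the same omissions for Myh3, and from -8.21 without anterior replicate 1 to -2.49 without anterior replicate 2 for Tnnt3. Replicate numbers are shared between the groups in the titles only, and the replicate differences of the groups correlated across genes at 0.0463, which is no sign of pairing. With the replicate block, 3586 genes and 16 members were called, at a member median of -2.21. With 2 libraries per group, sizes are poorly bounded for the 6 called members with 3 or fewer counts in at least 1 anterior library.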
